A study of Mus musculus and Homo sapiens with 12 samples.

Results

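Histone acylation was read at 10 genes that mark cell identity: the epithelial genes CDH1, EPCAM, KRT8 and KRT18, and the mesenchymal genes CDH2, VIM, FN1, ZEB1, SNAI2 and TWIST1. They were taken by name, 4 epithelial and 6 mesenchymal, from 20033 protein-coding genes in the human annotation and 21887 in the mouse annotation, and all 10 had a mouse gene of the same name. CUT&Tag, in which an antibody brings a transposase to chromatin that carries a histone mark, was performed for butyrylation of lysine 18 of histone H3 (H3K18bu) and of lysine 12 of histone H4 (H4K12bu) in 4 libraries of CCD841 cells, and for both marks and the corresponding acetyl marks (H3K18ac and H4K12ac) in 8 libraries of mouse large intestine. Each of the 6 groups had 2 replicates. CCD841 is a human line that the labels call colon epithelial, and all of its libraries came from cells given 1 mM sodium butyrate (NaBu) for 12 to 16 h. No library of untreated CCD841 cells was analysed here, so none of the values below measures an effect of NaBu. The mice were named in the study's methods as male CETP-ApoB-100 transgenic animals. The same section also refers to an ApoE-deficient mouse when it explains the diet, so the genotype is not settled. The Kbu libraries came from mice given the HFHS diet with 5% arabinoxylan, a dietary fiber, and the Kac libraries are labelled as HFHS diet alone, so acyl group and labelled diet changed together and cannot be told apart. The study's methods describe a low-fat control group and a high-fat, high-sucrose group that was later given arabinoxylan, and no group kept on HFHS alone, so the diet of the Kac mice is not settled. The mouse material is labelled as colon epithelium, but whole pieces of large intestine were homogenized, and such pieces also hold stroma, vessels, muscle and blood cells. Ages were not given in the sources used here, and whether the libraries of different marks share animals was not stated.

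Epithelial cells are joined to one another by E-cadherin, the product of CDH1, and by the adhesion molecule EpCAM, and their intermediate filaments are built from pairs of keratins such as KRT8 with KRT18. Mesenchymal cells instead carry N-cadherin, the product of CDH2, build their filaments from vimentin (VIM) and secrete fibronectin (FN1). ZEB1, SNAI2 and TWIST1 are transcription factors that drive the change from the first state to the second, and ZEB1 and SNAI2 are known to bind E-box sequences in the CDH1 promoter and repress it. Acylation of H3K18 and H4K12 is found at active promoters and enhancers.

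Each library was deposited as a list of peaks, and a peak was described by its pileup, the number of fragment ends stacked at its highest point, together with the deposited fold over the local background and the −log10 p of that fold. Overlapping peaks of a library were merged into regions. A stretch covered by a region of each replicate is called a shared region below, and the window of a gene is the gene with 10 kb on either side. In CCD841, H3K18bu gave 299720 peaks in replicate 1 and 299691 in replicate 2, and H4K12bu gave 299445 and 299296. The median pileups were 15, 12, 15 and 7. These numbers follow a limit on the peaks kept per list, and the weakest listed peak had a −log10 p of 5.31, 4.56, 4.81 and 2.97 in the same order, so a gene without a listed peak may still have carried a weaker one. Read totals are not given by the lists. The lowest local background, which follows depth, was 1.40, 1.12, 1.55 and 0.788 fragment ends in these libraries. The H4K12bu replicate 2 list was therefore the shallowest of the CCD841 lists. All p-values in the lists compare a position with its surroundings within 1 library. With 2 replicates against 2, an exact two-sided permutation test cannot give a p below 0.333, so no test between marks or groups was run, and members of a list are not replicates of one another.

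In CCD841 cells, KRT8 held the shared regions with the highest pileups of any epithelial member, and the strongest lay away from its canonical start. KRT8 spans chr12:52897187-52949954 (hg38) in the annotation used here, because some of its transcripts begin far upstream of the canonical start and reach into KRT18 (chr12:52948871-52952906). The window of KRT8 held 10 shared regions of H3K18bu and 10 of H4K12bu, or 1.37 per 10 kb for each mark, against medians over all protein-coding genes of 0.414 and 0.525. This placed KRT8 at the 91.4th and 85.4th percentiles. The strongest lay at chr12:52925000-52925450, 20149 bases upstream of the canonical KRT8 start and within an intron of the longer transcripts. Its H3K18bu pileup was 49 in replicate 1 and 29 in replicate 2, with folds of 6.23 and 4.52, and the H4K12bu region inside it had pileups of 43 and 16. A second region at chr12:52927023-52927816 had H3K18bu pileups of 34 and 26, and H4K12bu was listed there too, with pileups of 27 and 9. No H3K18bu peak was listed within 1 kb of the canonical KRT8 start in either replicate, and H4K12bu had one only in replicate 2, with a pileup of 8, although both marks were shared within 1 kb of another annotated KRT8 start. With the window drawn around the canonical transcript alone, KRT8 kept 3 shared regions of each mark, or 1.08 per 10 kb. With only peaks of q below 0.05, the full window kept 10 shared regions of H3K18bu and 8 of H4K12bu. The local background of the shared H3K18bu regions of KRT8 was also high, with a median of 5.54 fragment ends, against 2.49 for CDH2, 2.31 for CDH1 and 1.40 for ZEB1. By fold, which divides by this background, KRT8 did not lead: its best shared H3K18bu region in the weaker replicate had folds of 5.19 and 5.50, against 5.48 and 5.72 for an EPCAM region at chr2:47360958-47361384 with pileups of 16 and 15.

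KRT18 had no shared region of H3K18bu. Replicate 1 listed 2 regions in its window and replicate 2 listed 1, at different positions. For H4K12bu it had 4 shared regions, or 1.66 per 10 kb, at the 91.3rd percentile, and all 4 are also counted in the overlapping window of KRT8. The count was 2 when overlapping peaks of both replicates were joined into 1 region, and 1 with the gene body alone. It was 3 with only peaks of q below 0.05. One of the 4, chr12:52949833-52950015, lay 806 bases into KRT18, with pileups of 13 and 8 and folds of 3.28 and 3.32. The other 3 lay 3709 to 4438 bases upstream, within an intron of the longer KRT8 transcripts, with pileups of 15 to 18 in replicate 1 and 7 to 13 in replicate 2. KRT18 was the only member with a shared H4K12bu region at its start. H3K18bu was listed at that start only in replicate 2, with a pileup of 13.

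EPCAM (chr2:47345158-47387601) had 6 shared regions of H3K18bu, or 0.961 per 10 kb, at the 80.6th percentile. The count was 3 with the gene body alone and also with the window drawn around the canonical transcript. One of the 6 lay at the canonical start, chr2:47369213-47369283, 63 bases upstream at its middle, with pileups of 10 and 8 and folds of 4.58 and 4.25. The peaks ranked at the 67.8th and 65.3rd percentiles among the strongest start peaks of all protein-coding genes. The remaining regions had lower-replicate pileups of 10 to 15 and lay from 34013 bases upstream to 19115 bases downstream of the start. The last of these, just past the end of the gene at chr2:47388348-47388503, was also the only shared H4K12bu region of EPCAM, with pileups of 16 and 8.

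CDH1 (chr16:68737292-68835537) had the fewest shared H3K18bu regions per 10 kb of the 3 epithelial members that had any. Its window of 118 kb, which also takes in parts of CDH3 and TANGO6, held 3 shared H3K18bu regions, or 0.254 per 10 kb, at the 35.4th percentile. All 3 were inside the gene. The strongest, chr16:68760619-68761358, was intronic, 23697 bases from the start, with pileups of 21 and 15, and a neighbour 24796 bases from the start had 14 and 13. The third covered an exon 86286 bases from the start, with pileups of 14 and 16. No peak of either mark was listed within 1 kb of the canonical CDH1 start in any of the 4 libraries, although H3K18bu was shared near another annotated start, and no H4K12bu region was shared anywhere in the window. For that mark replicate 1 listed 2 regions and replicate 2 listed 8.

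**Figure D1:**
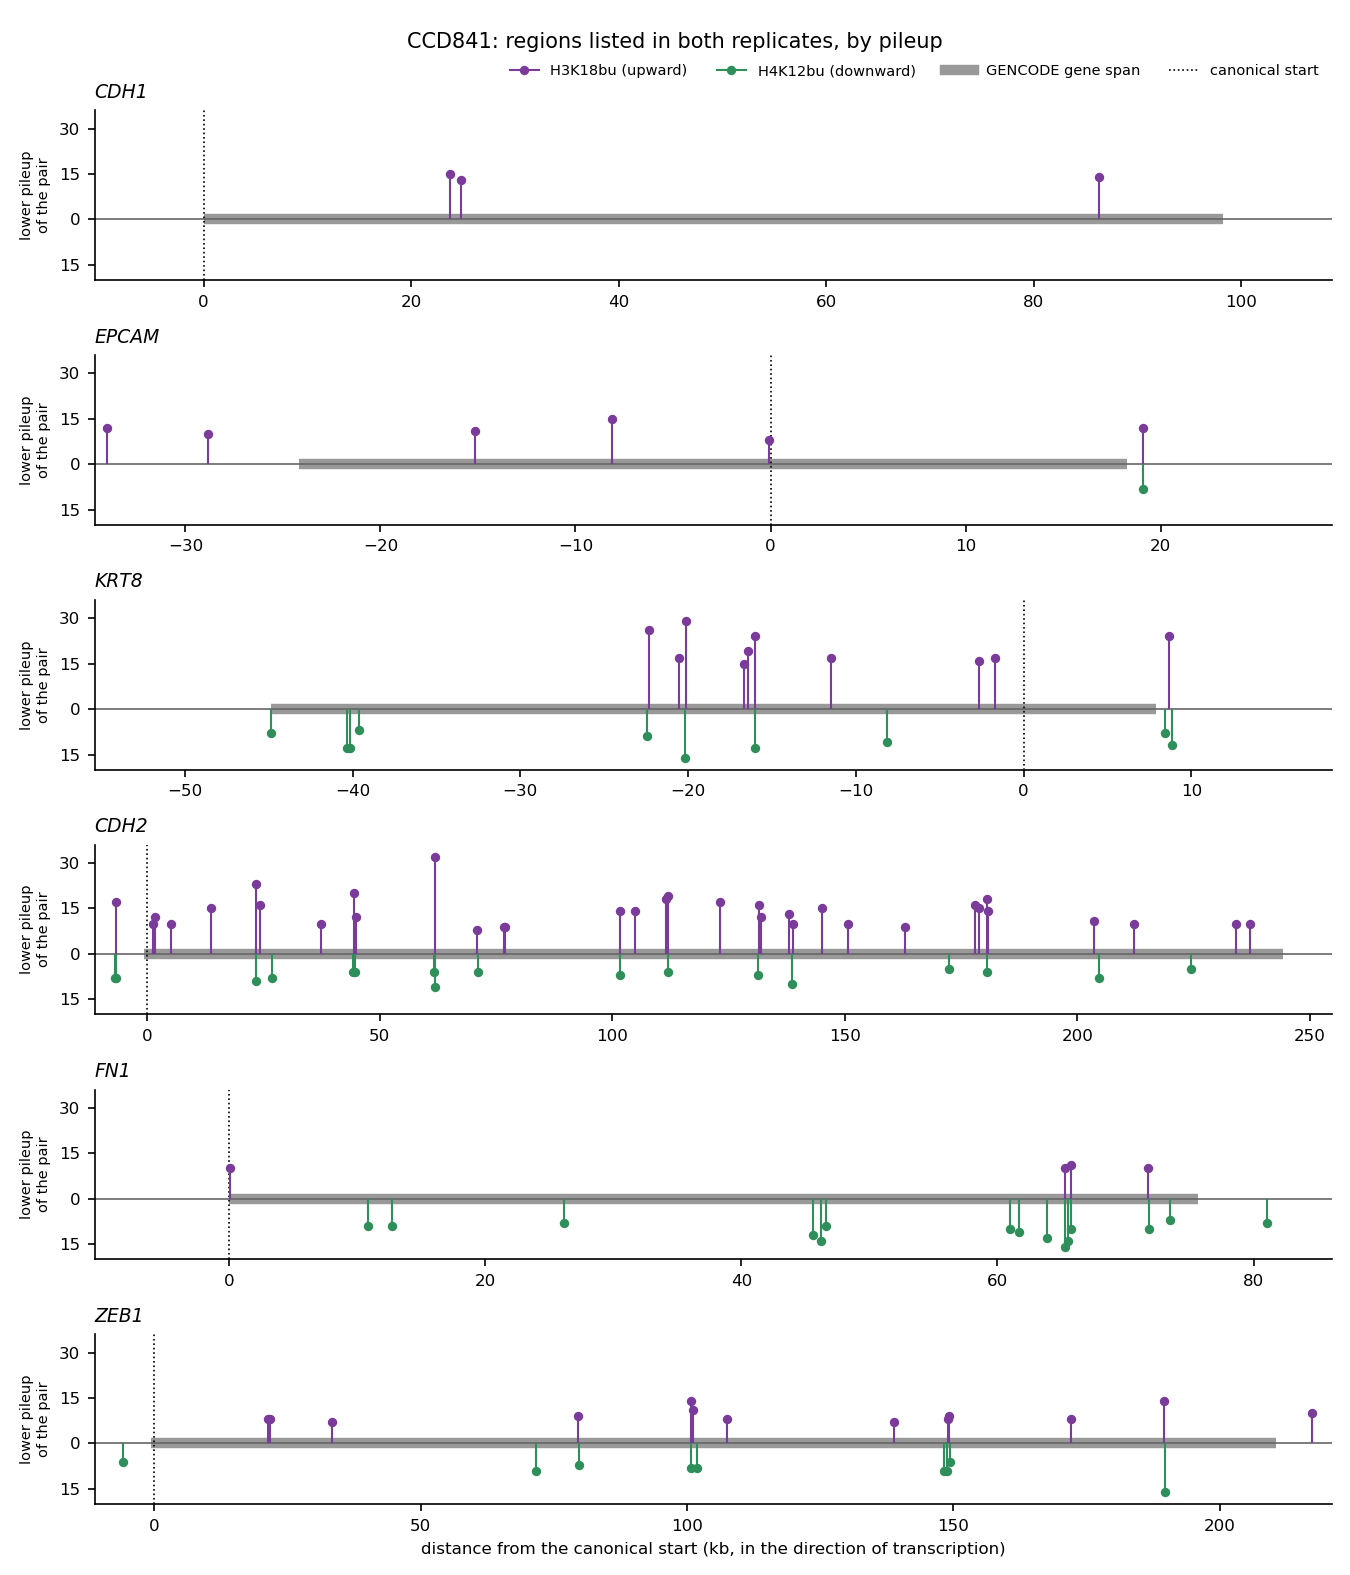
Shared regions in CCD841 cells at CDH1, EPCAM, KRT8, CDH2, FN1 and ZEB1, by distance in kb from the canonical start (dotted line) in the direction of transcription; grey bars are the annotated genes. The height is the lower pileup of the 2 replicates, upward for H3K18bu and downward for H4K12bu: CDH1 has 3 H3K18bu regions and none of H4K12bu, most KRT8 regions stand upstream of its canonical start, and the 34 regions of CDH2 run through the gene.

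Among the mesenchymal members, CDH2 was the most densely marked by H3K18bu. CDH2 spans chr18:27932879-28177946 on the minus strand, and its window held 34 shared H3K18bu regions, or 1.28 per 10 kb, at the 89.5th percentile. It held 17 shared H4K12bu regions, or 0.641 per 10 kb, at the 55.4th percentile. The H4K12bu count was 11 with only peaks of q below 0.05. Of the 34, 31 were intronic, 2 touched exons and 1 lay upstream. The strongest was intronic, chr18:28114978-28115618, 61832 bases from the start, with H3K18bu pileups of 32 and 36, and H4K12bu pileups of 27 and 11 inside it. The upstream region, chr18:28183612-28184102, 6727 bases before the start, had pileups of 28 and 17 and also overlapped shared H4K12bu. At the start itself, H3K18bu was listed only in replicate 2, with a pileup of 13 and a fold of 5.05, and H4K12bu in neither replicate.

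FN1 (chr2:215360440-215436073, minus strand) showed the marks in different places. H3K18bu had a shared region at the start, chr2:215435787-215436200, with pileups of 13 and 10 and folds of 5.64 and 4.75, and the peaks ranked at the 80.5th and 74.9th percentiles. No other member ranked as high at its start in its weaker H3K18bu replicate. The other 3 shared H3K18bu regions lay 65246 to 71765 bases from the start, toward the end of the gene, and all 3 overlapped H4K12bu. H4K12bu had 15 shared regions, or 1.57 per 10 kb, at the 89.6th percentile, against 4 of H3K18bu, or 0.418 per 10 kb, at the 50.5th percentile. With only peaks of q below 0.05 the H4K12bu count was 11. The median local background of the 15 was 3.10 fragment ends, against 2.88 for the shared H4K12bu regions of KRT8. None of the 15 was at the start. They ran from 10869 to 81082 bases downstream of it, 7 touching exons, 7 in introns and 1 past the gene, with pileups of 13 to 31 in replicate 1 and 7 to 16 in replicate 2.

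VIM (chr10:17228241-17237593) had 2 shared H3K18bu regions, or 0.681 per 10 kb, at the 67.1st percentile. They flanked the start without reaching to within 1 kb of it: chr10:17226490-17226562, 1715 bases upstream, had pileups of 15 and 10, and chr10:17229362-17229571, 1226 bases downstream, had 15 and 12. Its single shared H4K12bu region lay 1287 bases upstream, with pileups of 9 and 7. With a start window of 3 kb instead of 1 kb, VIM counted as marked by both H3K18bu and H4K12bu.

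Of the transcription factors, ZEB1 (chr10:31318495-31529814) had 13 shared H3K18bu regions, or 0.562 per 10 kb, and 9 of H4K12bu, or 0.389 per 10 kb. These densities fell at the 60.4th and 41.4th percentiles. Its strongest region, chr10:31508293-31509347, was intronic, 189604 bases from the start, with H3K18bu pileups of 34 and 14, and the H4K12bu region within it had pileups of 21 and 16. At the ZEB1 start, H3K18bu was listed only in replicate 2, with a pileup of 7. SNAI2 (chr8:48917598-48921740, minus strand) had 1 shared H3K18bu region, at the start, chr8:48921984-48922061, 594 bases upstream, with pileups of 12 and 7, and 1 shared H4K12bu region past its end, with pileups of 11 and 6. TWIST1 had 9 shared H3K18bu regions, or 0.772 per 10 kb, and none of H4K12bu. Its annotated span (chr7:19020991-19117636, minus strand) is far longer than its canonical transcript of 2169 bases, and only 2 of the 9 regions lay within 10 kb of that transcript. Both replicates listed an H3K18bu peak within 1 kb of the TWIST1 start, with pileups of 10 and 7, but these peaks did not overlap.

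**Figure D2:**
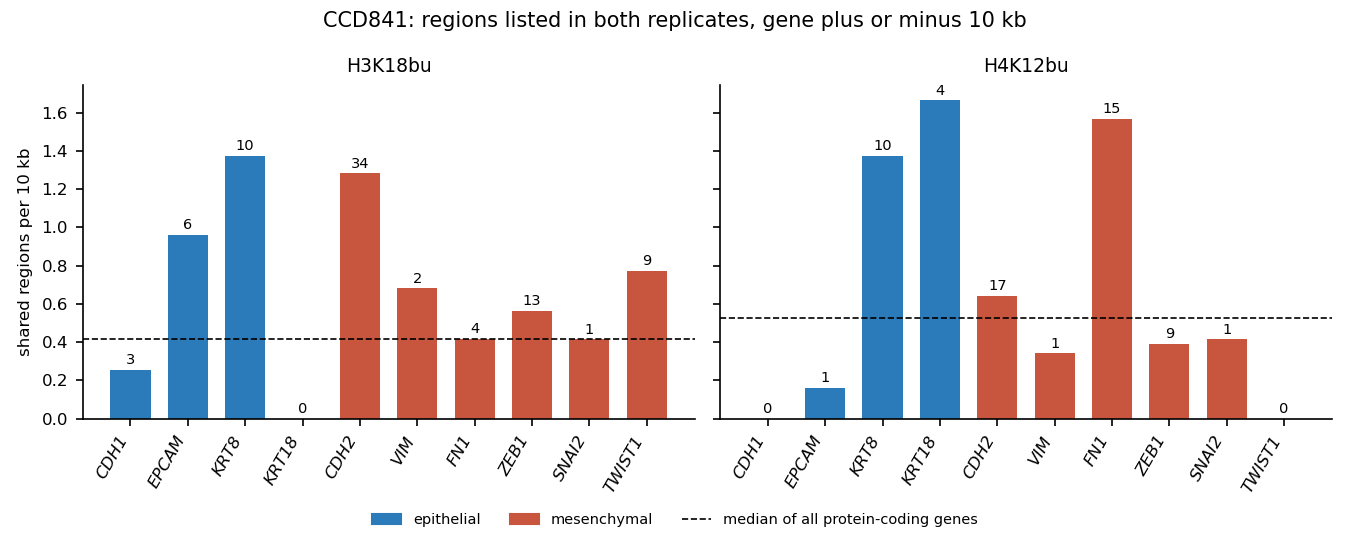
Shared regions per 10 kb of window for each member in CCD841 cells, H3K18bu on the left and H4K12bu on the right, with the number of regions over each bar and the median of all protein-coding genes as a dashed line. For H4K12bu, members of both kinds stand above and below the line. For H3K18bu, CDH1 and KRT18 lie below it and the other members above it, SNAI2 and FN1 by very little. KRT8 (1.37) and CDH2 (1.28) are highest for H3K18bu, and KRT18 (1.66, from 4 regions that become 2 when joined over the replicates) and FN1 (1.57) for H4K12bu.

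Set side by side, the epithelial and mesenchymal members of CCD841 overlapped for both marks. For H3K18bu the epithelial members ranged from 0 to 1.37 shared regions per 10 kb with a median of 0.607, and the mesenchymal members from 0.414 to 1.28 with a median of 0.622. For H4K12bu the ranges were 0 to 1.66 and 0 to 1.57, with medians of 0.767 and 0.402. Pooled over the windows, the epithelial members had 0.685 shared H3K18bu regions per 10 kb and the mesenchymal members 0.827, while H4K12bu gave 0.541 and 0.564. The windows of KRT8 and KRT18 overlap, and with each base and region counted once the epithelial values were 0.741 for H3K18bu and 0.429 for H4K12bu. The order of the medians thus differed between the marks, and in each mark the spread among members was wider than the gap between the groups. Altogether the windows held 82 distinct shared H3K18bu regions, of which 23 overlapped shared H4K12bu, and 54 distinct H4K12bu regions, of which 27 overlapped shared H3K18bu. Across the genome 30.1% of shared H3K18bu regions and 38.4% of shared H4K12bu regions overlapped the other mark.

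The strongest stretches listed in all 4 CCD841 libraries at KRT8, FN1 and ZEB1 are shown as examples of stretches where the marks coincided. Other members, CDH2 and EPCAM among them, also had such stretches, which are not printed. The 150 bases centred on each are given from hg38 on the strand of the gene, 5′ to 3′, and since the FN1 stretch is 86 bases long, its window runs 32 bases past it on either side.
KRT8, chr12:52925167-52925316, minus strand: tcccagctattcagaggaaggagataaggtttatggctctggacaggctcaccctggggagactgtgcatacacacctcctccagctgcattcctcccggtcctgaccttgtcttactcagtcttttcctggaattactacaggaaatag
FN1, chr2:215370738-215370887, minus strand: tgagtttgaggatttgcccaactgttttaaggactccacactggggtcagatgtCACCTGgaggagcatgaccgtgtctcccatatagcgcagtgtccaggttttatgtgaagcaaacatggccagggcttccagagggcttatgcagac
ZEB1, chr10:31508802-31508951, plus strand: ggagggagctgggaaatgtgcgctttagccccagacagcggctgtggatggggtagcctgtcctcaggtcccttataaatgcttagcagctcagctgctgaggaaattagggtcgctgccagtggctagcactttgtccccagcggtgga
Capitals mark the E-box letters CAGGTG, with CACCTG on the other strand, and the AP-1 letters TGANTCA, which are the same on both strands, were searched too. FN1 held 1 match to this form of the E-box, KRT8 and ZEB1 held none, and none of the 3 held the AP-1 letters. Other E-box forms, such as CAGCTG, were not searched. Among all 43291 stretches listed in the 4 libraries, 14.3% held the E-box letters and 9.79% the AP-1 letters within the 150 bases centred on them. A match is a description of the letters only, and an absence says only that these letters are not in these windows.

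At the starts the counts were small. A shared H3K18bu region lay within 1 kb of the canonical start of 1 of 4 epithelial members (EPCAM) and of 2 of 6 mesenchymal members (FN1 and SNAI2), against 32.3% of all protein-coding genes. A shared H4K12bu region lay there in 1 of 4 epithelial members (KRT18) and 0 of 6 mesenchymal members, against 14.7% of all genes. These counts are near the background. With any annotated transcript start in place of the canonical one, the H3K18bu counts were 3 of 4 (CDH1, EPCAM and KRT8) and 4 of 6 (CDH2, VIM, FN1 and SNAI2), against 43.4% of all genes. The H4K12bu counts were then 2 of 4 (KRT8 and KRT18) and 2 of 6 (CDH2 and FN1), against 34.5%. The KRT8 and KRT18 counts are not independent, since the region chr12:52949833-52950015 lies at the KRT18 start and also covers the upstream end of KRT8. Within 3 kb of the canonical start, H3K18bu was shared at 2 of 4 (EPCAM and KRT8) and 4 of 6 (CDH2, VIM, FN1 and SNAI2), against 39.6% of all genes, and H4K12bu at 1 of 4 (KRT18) and 1 of 6 (VIM), against 21.5%. A peak in either replicate within 1 kb was listed for 2 of 4 and 5 of 6 members with H3K18bu, against 55% of all genes, and for 2 of 4 and 1 of 6 with H4K12bu, against 39.5%.

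The strongest peak at each start was also ranked among all protein-coding genes in each library, where genes with no listed peak share the 29.1st and 26.4th percentiles for H3K18bu and the 35.8th and 36.1st for H4K12bu. For H3K18bu the median percentile was 29.1 in replicate 1 and 45.9 in replicate 2 for epithelial members, and 46.0 and 56.0 for mesenchymal members. The mesenchymal minus epithelial difference was 13.6 ± 4.77 percentile points (SD, n = 2), and it became −8.29 when any annotated start was used. For H4K12bu the medians were 35.8 and 56.3 for epithelial members and 35.8 and 36.1 for mesenchymal members, a difference of −10.1 ± 14.3 (SD, n = 2), which was smaller than its spread. Of the 6 mesenchymal members, 3 had a listed H3K18bu start peak in replicate 1 and 5 in replicate 2, and of the 4 epithelial members 1 and 2, against 41.9% and 47.3% of all genes. For H4K12bu these counts were 0 and 1 mesenchymal members and 1 and 2 epithelial members, against 28.3% and 27.8% of all genes.

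**Figure D3:**
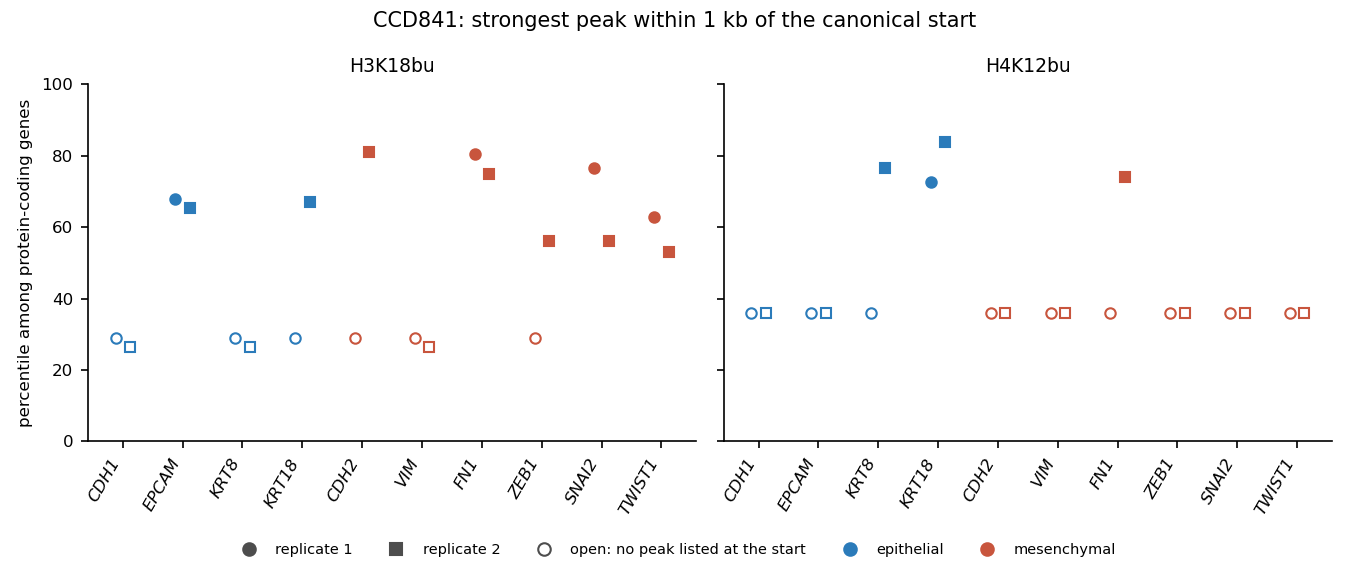
Percentile of the strongest peak within 1 kb of the canonical start of each member among all protein-coding genes, in CCD841 replicate 1 (circles) and replicate 2 (squares); open symbols are members with no listed peak, which share 1 tied percentile per library. FN1, SNAI2, TWIST1 and EPCAM have a listed H3K18bu peak in both replicates, and KRT18 alone has one of H4K12bu in both.

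The mouse lists had lower pileups and local backgrounds than the CCD841 lists, and the Kbu lists also held fewer peaks. This bears on every count that follows. H3K18ac gave 299840 and 299861 peaks and H4K12ac 299778 and 299623, whereas H3K18bu gave 60813 and 50675 and H4K12bu 50932 and 96432. The lowest local background was 0.0146 fragment ends in all 4 Kbu libraries and between 0.0608 and 0.147 in the Kac libraries. In the Kbu libraries 89.2% to 91.4% of peaks had a pileup of 1, that is, a single fragment end above the background, and in the Kac libraries 12.8% to 72.1%. Mouse genes had no strand in the RefSeq table, and a peak within 1 kb of either end of a gene was counted. Where a pileup is lower in bulk tissue, fewer cells with the mark and less of the mark in each cell cannot be told apart.

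In mouse large intestine the shared regions were denser over the epithelial windows than over the mesenchymal ones. For H3K18bu the 4 epithelial windows held 11 shared regions in 173 kb, or 0.634 per 10 kb, and the 6 mesenchymal windows held 1 in 607 kb, or 0.0165 per 10 kb. For H3K18ac the densities were 0.692 and 0.0989 per 10 kb, from 12 and 6 regions. For H4K12bu they were 0.115 and 0.0330, from 2 regions each, and for H4K12ac 0.576 and 0.132, from 10 and 8. The pooled density was higher for the epithelial members in all 4 marks, but not every member followed its group, and the ranges of single members overlapped in all 4. Much of the epithelial count lay in the 10 kb flanks. Within the gene bodies alone the epithelial members had 4 shared regions of H3K18bu, 3 of H3K18ac, 1 of H4K12bu and 3 of H4K12ac in 93.5 kb, and the mesenchymal members 1, 5, 0 and 7 in 487 kb, so the H3K18ac and H4K12ac counts were then higher for the mesenchymal members. With only peaks of a pileup of at least 2, the windows held 3 regions against 0 for H3K18bu and 12 against 0 for H3K18ac. For H4K12bu they held 1 against 0, and for H4K12ac 10 against 7. With only peaks of q below 0.05, the counts were 3 against 0 for H3K18ac and 1 against 2 for H4K12ac. Neither H3K18bu nor H4K12bu then had a shared region at any member. The densities in the gene bodies were 0.321 against 0.103 per 10 kb for H3K18ac and 0.321 against 0.144 for H4K12ac. Medians over all protein-coding genes were 0 for both butyryl marks, 0.202 for H3K18ac and 0.221 for H4K12ac.

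Krt8 (chr15:101996711-102004342, mm10) had 5 shared H3K18bu regions, or 1.81 per 10 kb, at the 99.97th percentile, 3 of H3K18ac, 5 of H4K12ac and none of H4K12bu. The H3K18bu count was 2 with only peaks of a pileup of at least 2, 0 with only peaks of q below 0.05 and 0 with the gene body alone. Its window also holds an end of Krt78, and 1 of the H3K18bu regions lies near that end. At its upstream end, chr15:102004418-102004602 was shared by the H3K18ac replicates with pileups of 6 and 7, and chr15:102004433-102004612 by the H3K18bu replicates with pileups of 2 and 1. The H3K18ac peaks there ranked at the 93.6th and 92.6th percentiles among gene ends. Krt8 was the only member with a region of both H3K18 marks at a gene end in both replicates. The 250 bases before its start are therefore shown, from RefSeq (GRCm38.p6), minus strand, 5′ to 3′, with the 160 bases in shared regions of both H3K18bu and H3K18ac in capitals.
Krt8, chr15:102004343-102004592, minus strand: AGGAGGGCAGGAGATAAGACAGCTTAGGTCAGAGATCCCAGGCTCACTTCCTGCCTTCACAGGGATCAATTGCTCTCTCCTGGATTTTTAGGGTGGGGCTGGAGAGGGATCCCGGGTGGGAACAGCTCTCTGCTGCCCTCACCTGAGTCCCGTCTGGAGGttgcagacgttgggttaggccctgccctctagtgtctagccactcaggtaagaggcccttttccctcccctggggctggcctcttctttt
The E-box letters CACCTG occur once in it, inside the capitals, 140 bases from its 5′ end, and CAGGTG or CACCTG was present in 17.2% of the 32851 mouse promoters of that length in the table. Krt18 (chr15:102028216-102032026) had 3 shared H3K18ac and 2 shared H4K12ac regions, all in its flanks, with pileups of 2 to 7, and no shared region of either butyryl mark. Its H3K18bu list held 0 regions in replicate 1 and 5 in replicate 2.

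Epcam (chr17:87635979-87651127) had 3 shared regions of H3K18bu, 5 of H3K18ac, 1 of H4K12bu and 1 of H4K12ac. Its strongest region lay in the flank and was shared in 3 of the 4 marks: chr17:87628243-87628442 for H3K18bu with pileups of 4 and 3, chr17:87628321-87628449 for H3K18ac with 9 and 7, and chr17:87628170-87628527 for H4K12bu with 2 and 4. No shared region of any member had a higher pileup of these 3 marks in either replicate. Cdh1 (chr8:106603350-106670247) had 3 shared H3K18bu regions, 1 of H3K18ac, 1 of H4K12bu and 2 of H4K12ac. All but 1 were inside the gene, none overlapped another mark, and their pileups were 1 to 4. The H4K12bu region lay at the gene end, with a pileup of 1 in each replicate.

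**Figure D4:**
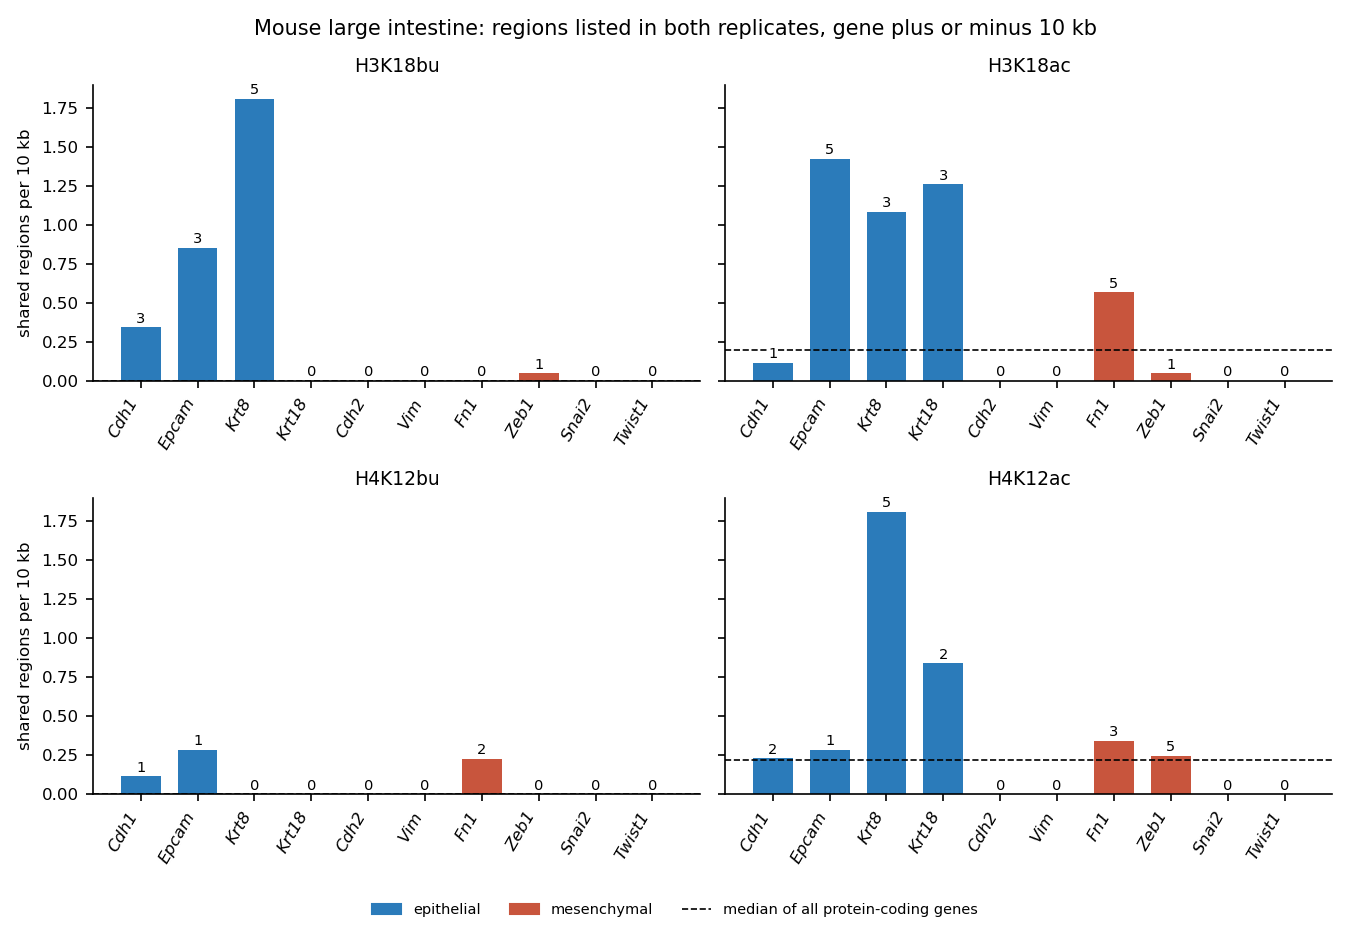
Shared regions per 10 kb of window for each member in mouse large intestine, 1 panel per mark, with the number of regions over each bar and the median of all protein-coding genes as a dashed line. Krt8 reaches 1.81 for H3K18bu and for H4K12ac, and Cdh2, Vim, Snai2 and Twist1 are at 0 in all 4 marks.

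Of the mesenchymal members, Cdh2, Vim, Snai2 and Twist1 had no shared region of any mark. The replicates listed unequal numbers of regions there: the window of Cdh2 held 21 regions of H3K18ac in replicate 1 and 1 in replicate 2, and 14 and 26 of H4K12ac. Snai2 and Twist1 had no H3K18bu peak in either replicate, while Vim had 1 and 2 regions. Fn1 (chr1:71585473-71653280) had 5 shared H3K18ac regions, each with a pileup of 1 in both replicates, 2 of H4K12bu with pileups of 1 and 3 of H4K12ac with pileups of 1 to 4. Its window also takes in part of Atic, whose end lies near 1 of the H4K12ac regions. Zeb1 (chr18:5591327-5775468) had the highest pileups of any mouse mesenchymal member, and they were of H4K12ac: chr18:5604315-5604493, inside the gene, had pileups of 8 and 9, and chr18:5603948-5604205 had 6 and 9. Its single shared H3K18bu region, at a gene end, had a pileup of 1 in each replicate.

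At the gene ends of the mouse members, shared H3K18bu was found in 1 of 4 epithelial members (Krt8) and 1 of 6 mesenchymal members (Zeb1), against 6.66% of all genes, and H3K18ac in 2 of 4 (Epcam and Krt8) and 1 of 6 (Fn1), against 23.7%. H4K12bu was found in 1 of 4 (Cdh1) and 0 of 6, against 16.1%, and H4K12ac in 1 of 4 (Krt8) and 0 of 6, against 26.9%. The mesenchymal minus epithelial difference in median percentile was −42.9 ± 18.04 for H3K18bu, −48.3 ± 15.3 for H3K18ac and −40.3 ± 0.897 for H4K12bu (SD, n = 2 each), with both replicates of each mark below 0. For H4K12ac it was 8.31 ± 35.9 (SD, n = 2), with 33.7 in replicate 1 and −17.1 in replicate 2. Kept to peaks with a pileup of at least 2, the differences were −24.7, −47.8, 0 and 7.73 in the same order, so the H4K12bu difference rested on peaks with a pileup of 1. Kept to peaks with q below 0.05, the H3K18bu and H4K12bu differences were 0 and that of H3K18ac −12.3, and within 3 kb of a gene end the H4K12bu difference was −13.4.

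Further genes of each state were counted in the same way. In CCD841, shared H3K18bu lay at the start of 2 of 20 other epithelial genes (OCLN and SPINT2), 1 of 10 regulators of the epithelial state (KLF5) and 2 of 10 gut epithelial genes (VIL1 and GPA33), and of 11 of 30 other mesenchymal genes, against the 32.3% of all genes given above. SPARC, a matrix protein of fibroblasts, had start pileups of 31 and 22. COL6A3, a chain of collagen VI, had 26 and 18, and CALD1, an actin-binding protein of contractile cells, had 26 and 33. KLF5, a transcription factor of proliferating gut epithelium, had 18 and 20, and VIL1, an actin bundler of the brush border, had 19 and 16. SPINT2, a protease inhibitor, had 13 and 11, OCLN, of tight junctions, had 11 and 9, and GPA33, a surface protein of gut epithelium, had 12 and 10. CDH3, which encodes P-cadherin, had start pileups of 15 and 12, from peaks that did not overlap between the replicates. H4K12bu counts were 2 of 20, 0 of 10, 0 of 10 and 5 of 30, against 14.7% of all genes. By shared H3K18bu regions per 10 kb of window, the medians of these lists were 0.705, 0.441, 0.801 and 1.04, against 0.414 for all genes. For H4K12bu the medians were 0.301, 0.0507, 0.205 and 0.850, against 0.525. The highest H3K18bu start pileup of any member of either kind was 13, below SPARC, COL6A3 and CALD1 and also below KLF5 and VIL1. SPARC, COL6A3 and CALD1 were taken from the strongest of 30 genes, whereas the members were taken by name.

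Genes of cell types that a colon epithelial line should lack also carried shared H3K18bu at their starts in CCD841: 2 of 6 endothelial genes (CDH5 and VWF), 1 of 5 smooth muscle genes (ACTG2) and 1 of 5 neural and glial genes (SOX10), against 32.3% of all genes. VWF, the clotting factor of endothelium, had pileups of 25 and 28. Of broadly expressed genes, shared H3K18bu was found at 4 of 10, with YWHAZ at pileups of 28 and 19 and EEF1A1 at 25 and 20. Shared H4K12bu lay at the start of 1 of 6 endothelial genes (CDH5), 2 of 7 immune genes (CD79A and CD68), 0 of 5 smooth muscle genes, 0 of 5 neural and glial genes and 1 of 10 broadly expressed genes (EEF1A1), against 14.7% of all genes. For H3K18bu the shares were 33.3% of endothelial, 20% of smooth muscle, 20% of neural and glial and 40% of broadly expressed genes. They lay on both sides of the 32.3% of all genes, and lists this short set no cell type apart.

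In mouse large intestine, shared H3K18bu lay at an end of 5 of 20 other epithelial genes, 3 of 10 regulators and 6 of 10 gut epithelial genes, and of 0 of 30 other mesenchymal genes, against 6.66% of all genes. The 6 were Vil1, Cdx1, Cdx2, Lgals4, Phgr1 and Gpa33, and H3K18ac was shared at an end of the same 6 genes. Cdx2 is also in the list of regulators and is counted in both lists for these marks. Gpa33 had H3K18ac pileups of 17 and 15 and H3K18bu pileups of 5 and 5, and Vil1 had H3K18ac pileups of 8 and 13. H3K18ac counts were 6 of 20, 2 of 10, 6 of 10 and 2 of 30, against 23.7% of all genes, and H4K12bu counts were 3 of 20, 4 of 10, 3 of 10 and 2 of 30, against 16.1%. H4K12ac gave 3 of 20, 1 of 10, 2 of 10 and 4 of 30, against 26.9%. Among genes of the other cell types of the tissue, H3K18bu was shared at an end of 0 of 6 endothelial, 0 of 7 immune, 0 of 5 smooth muscle and 0 of 5 neural and glial genes, and H3K18ac at 1 of 6 (Kdr), 1 of 7 (Cd3e), 1 of 5 (Smtn) and 0 of 5. The broadly expressed genes had 0 of 9 for H3K18bu and 1 of 9 for H3K18ac (Hsp90ab1). For H4K12bu the 4 lists of other cell types had none, and the broadly expressed genes had 3 of 9 (Actb, Gapdh and Eef1a1). For H4K12ac the counts were 0 of 6 endothelial, 1 of 7 immune (Csf1r), 1 of 5 smooth muscle (Smtn), 0 of 5 neural and glial and 4 of 9 broadly expressed genes (Gapdh, Eef1a1, Ppia and Hsp90ab1). Tgfbi, with H3K18ac pileups of 10 and 7, was the strongest of the other mesenchymal genes.

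**Figure D5:**
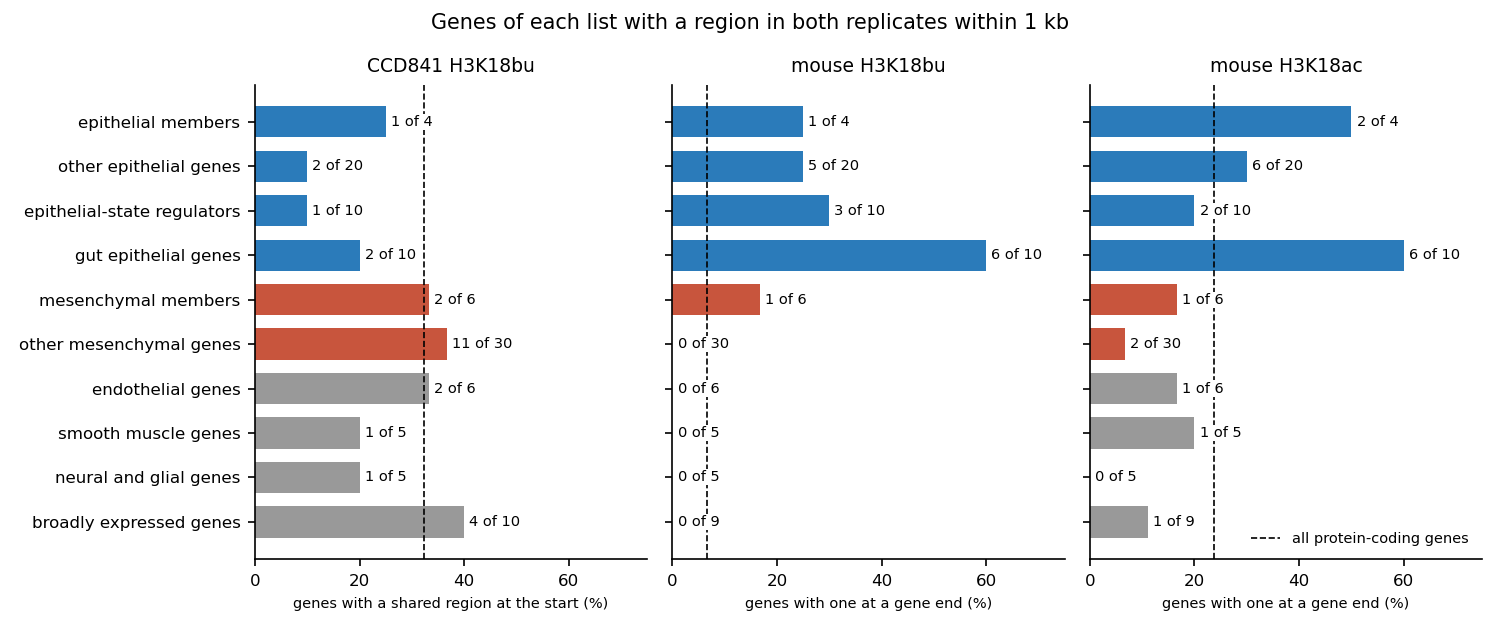
Share of genes of each list drawn with a shared region within 1 kb of the start (CCD841) or of a gene end (mouse), with counts beside the bars and the share among all protein-coding genes as a dashed line. For H3K18bu in CCD841 the epithelial lists lie at or below 25% and the other mesenchymal genes at 36.7%, against 32.3% of all genes and 40% of broadly expressed genes. By median density over the windows, which is not drawn, these epithelial lists lie above the median of all genes for that mark. In mouse the gut epithelial genes reach 60% for H3K18bu and for H3K18ac, and the other mesenchymal genes 0% and 6.67%.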

How the data were processed

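The authors aligned reads with Bowtie2 2.3.1 after cutadapt 1.9.1 and called peaks with MACS2 2.1.0, on hg38 and mm10, as named in the submitters' processing notes. They deposited 1 peak list for each library, at a p threshold of 0.01 with a cap on the number of peaks, and no control library was named. In these deposited lists the fold ratio is the MACS2 value, (pileup + 1) / (background + 1). The −log10 p and −log10 q were deposited by the authors from the same test. Pileups were solved from fold and p, and 99.9997% or more of each list solved to whole numbers (tolerance 0.01 in −log10 p). Depth totals are not in the lists, so intervals could not be given.

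From the lists, peaks were merged at an overlap of 1 base, shared regions were taken as the stretches covered in both replicates, and each gene was widened by 10 kb. Human genes came from GENCODE 44 (hg38, the build of the lists), with the Ensembl canonical transcript giving the start. Mouse genes came from a RefSeq table of GRCm38, the assembly that mm10 also names, without strand. In each library, the highest −log10 p within 1 kb of a start was ranked among all protein-coding genes (mid-rank percentile, 0 to 100). The list named all 10 members and, of each further list, the 3 genes with the highest lower-replicate −log10 p for H3K18bu in CCD841 and H3K18ac in mouse, from which examples were taken; Gpa33 for H3K18bu in mouse and the genes listed with each count were named after their values were seen. The members, lists and rules were chosen with earlier results of these data known. Of 10 broadly expressed genes, 9 matched a mouse symbol. Helpers were tested on simulated peaks and against bedtools 2.31.1. Python 3.11.15, pandas 2.3.3, scipy 1.17.1 and pysam 0.24.0 were used. Alternatives were q below 0.05, equal numbers of peaks, a 3 kb start window, ranking by fold, any transcript start, either replicate, and each replicate left out. Joined regions, the canonical window and a pileup of at least 2 were added after seeing the data. Replicates were numbered as in the labels. The count of immune genes with H3K18bu in CCD841 and some promoter sequences are not reported here.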

Additional observations from a re-analysis of the deposited data

How the results depend on the processing

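Peak lists carry no read counts, so a weak mark and a missing one cannot be separated below each list's weakest peak, and 89.2% or more of mouse Kbu peaks stood on a pileup of 1. No paired analysis was possible because the results come from no test. Each is a count in a library, a count of regions shared by the 2 replicates of a mark, or a difference between gene groups within a library.

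In CCD841 the mesenchymal minus epithelial difference in H3K18bu start percentile turned to −8.29 with any annotated start, and the cause was not tested. It was 10.2 to 16.9 with a replicate left out, and the H4K12bu difference −20.2 to 0. With a 3 kb window, 2 of 4 epithelial and 4 of 6 mesenchymal members had an H3K18bu start region, against 39.6% of all genes. The numbers were 2 and 5 with a peak in either replicate, against 55%, and 3 and 4 with any annotated start, against 43.4%. For H4K12bu there was 1 mesenchymal member with a 3 kb window, 2 epithelial and 1 mesenchymal with either replicate, and 2 and 2 with any annotated start. The shares of all genes were 21.5%, 39.5% and 34.5% in the same order. With a replicate left out, the H3K18bu counts were 1 to 2 epithelial and 3 to 5 mesenchymal members, against 41.9% and 47.3% of all genes. The H4K12bu counts were 1 to 2 and 0 to 1, against 28.3% and 27.8%.

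In mouse, only peaks with q below 0.05 gave differences of 0 for H3K18bu, −12.3 for H3K18ac and 0 for H4K12bu, since few members then kept a peak. A pileup of at least 2 gave −24.7 for H3K18bu and 0 for H4K12bu. Equal numbers of peaks gave −25.7 for H3K18ac and −20.4 for H4K12bu. A 3 kb window gave −30.4 for H3K18ac, −13.4 for H4K12bu and −14.1 for H4K12ac, the last a change of sign whose cause was not tested. With a replicate left out, the differences were −55.7 to −30.1 for H3K18bu, −59.2 to −37.5 for H3K18ac, −40.9 to −39.6 for H4K12bu and −17.1 to 33.7 for H4K12ac. Ranking by fold moved none of the differences, and joined regions none of the counts of members with a start region, past its limit.

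With the gene body alone, 7 of 20 counts of shared regions per member and mark moved by over 1.5 times in CCD841. In mouse 10 of 40 moved. The numbers moved were 1 and 19 with q below 0.05, and 1 and 2 with joined regions. In CCD841 every region of the H3K18bu lists and of H4K12bu replicate 1 already passed q below 0.05, so no H3K18bu count could move. That filter acted only on H4K12bu replicate 2, which had 282656 regions without it and 154743 with it. In CCD841 4 moved with the canonical window, and in mouse 8 moved with a pileup of at least 2.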
